A study of Zea mays with 32 samples.

Results

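Transcript levels in leaf primordia of 2 maize (Zea mays) landraces, Zapalote and Nal-tel, were compared in 8 RNA-seq libraries, 4 of each landrace, out of 32 libraries from 8 landraces. A landrace is a traditional farmers' variety, and its plants are not genetically uniform. In both landraces 2 libraries came from the fifth and 2 from the ninth leaf, at the fourth plastochron stage (4), so the groups were balanced over the leaves. All plants were grown at 35 °C, a treatment the labels call heat, and libraries from other temperatures were not analysed here. Genes entered when their normalized count averaged at least 10 over the 8 libraries, which held for 25567 of 39756 genes (64.3%). Of the remaining 14189 genes, 5801 had no read in any of the 8 libraries and 8388 had a lower mean. The labels name no accession of either landrace, no number of plants per library and no pooling. The p-values therefore measure the spread between libraries, which the main fit estimated from the replicates of all 32.

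A leaf primordium at this stage is a young leaf whose blade and veins are still being laid down. The series' title concerns leaf vein density, and closely spaced veins are a hallmark of C4 leaves, in which mesophyll and bundle sheath cells divide the work of carbon fixation. Zapalote is a maize of the Isthmus of Tehuantepec in southern Mexico, and Nal-tel an early maize of the Yucatán Peninsula. Maize varieties are known to differ in regulatory sequence and in which genes a genome carries. The values are reads assigned to 1 set of gene models, so a lower transcript level and reads that map less well from 1 landrace cannot be told apart.

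The 8 libraries held between 57.5 and 83.3 M recovered reads, with between 28447 and 29945 genes above 0. Gene names do not come with the deposited IDs, of which 0 matched the RefSeq gene table at hand. Genes are therefore given by ID, without role, position or sequence, and the labelled tissue was not checked against marker genes. The correlation across genes, which are not independent, was r = 0.948 between the fifth leaf replicates of Zapalote and 0.941 between those of the ninth. For Nal-tel it was 0.963 and 0.969. Between the landraces the median r over 4 library pairs was 0.913 for the fifth leaf and 0.927 for the ninth. By r all 4 replicate pairs stood above the pairs that crossed the landraces within a leaf, which ran from 0.903 to 0.939. The share of genes at least 2-fold apart was 14.7% and 16.2% between Zapalote replicates and 13.8% and 10.7% between Nal-tel replicates. Across the landraces it ran from 19.1% to 22.6% for the fifth leaf and from 15.8% to 19.1% for the ninth. By this measure the ninth leaf replicates of Zapalote lay within the range between the landraces. By the median absolute log2 difference they did so too (0.287, against 0.253 to 0.353). The fifth leaf replicates of Nal-tel then also lay within their range (0.332, against 0.328 to 0.424). The fifth leaf replicates of Zapalote (0.244) and the ninth of Nal-tel (0.193) lay below it.

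Which genes differ between the landraces over both leaves was tested with limma, at a Benjamini-Hochberg adjusted p under 0.05. The spread came from all 32 libraries, including those of the other landraces. Of the 25567 genes, 2152 (8.42%) passed, of which 1230 (4.81%) were higher and 922 (3.61%) lower in Zapalote. The median absolute log2 fold change was 1.30 among the genes called and 0.24 among all genes tested. Of the genes called, 1231 (57.2%) changed at least 2-fold, 796 at least 4-fold and 270 at least 16-fold. Another 502 changed by less than 1.5-fold. Fold changes are Zapalote minus Nal-tel on the log2(normalized count + 1) scale, where the change of a low gene comes out too small. In whole primordia, fewer cells of a type and less RNA per cell cannot be told apart, and near-identical gene copies are uncertain. The 4 libraries of 1 landrace lay wholly above the 4 of the other in 1546 (71.8%) of the genes called, against 12.7% of all genes tested (Zapalote above in 6.54%, Nal-tel above in 6.15%). The size of the list differed with the method and with the libraries fitted. On the recovered reads DESeq2 called 3091 genes (12.1%), of which 2056 were among the 2152. There edgeR with TMM called 1964 (7.68%). Fitted by limma to the 8 libraries alone the list held 1104 genes (4.32%), of which 949 were among the 2152. Without the fifth leaf replicate 2 of Zapalote it held 1197, without the ninth leaf replicate 1 of Nal-tel 1349 and without the ninth leaf replicate 2 of Nal-tel 1199. With each library centred on its own median the split was 1092 higher and 1026 lower.

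The share of genes called was higher below a mean of 1000 than above it. It was 10.2% of 5905 genes with a mean from 10 to 100, and 10.6% of 7451 genes from 100 to 1000. It was 6.34% of 10904 genes from 1000 to 10000, and 5.36% of 1307 genes above that. The median absolute log2 fold change of the called genes was 3.23, 1.43, 0.53 and 0.52 in the same order. A low gene needs a larger change to pass the test. At a mean of at least 10000 the direction was uneven, with 19 genes higher and 51 lower in Zapalote. Whether all 1307 genes of this range leaned that way, or whether the scaling mattered, was not tested. In the lowest range 328 were higher and 275 lower.

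**Figure D1:**
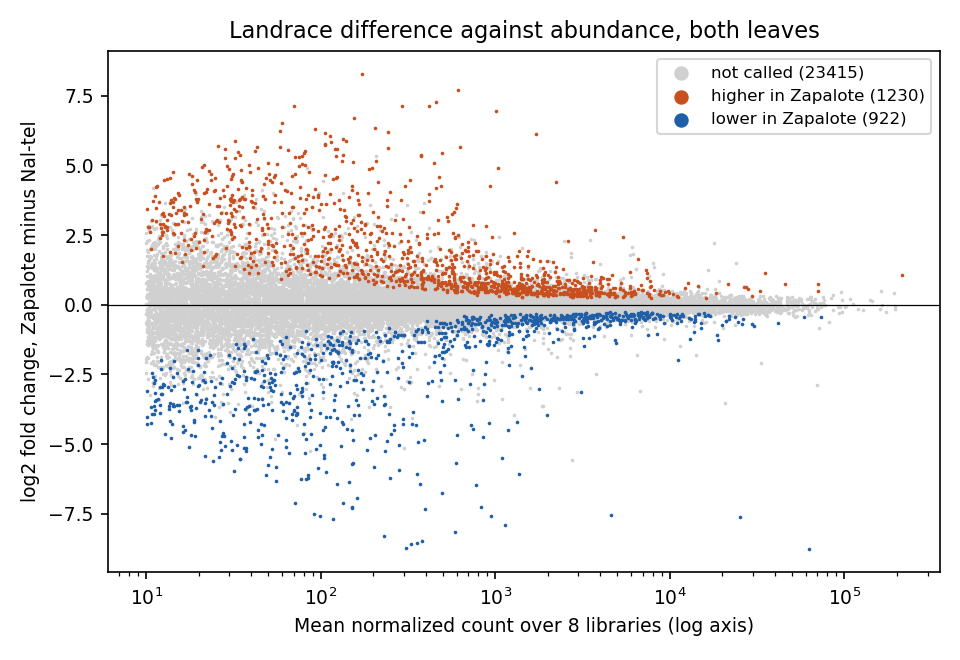
Log2 fold change of Zapalote minus Nal-tel over both leaves (y axis) against the mean normalized count over 8 libraries (x axis, log scale) for 25567 genes. Orange points are the 1230 genes higher and blue points the 922 genes lower in Zapalote, and grey points did not pass. Of the 1231 called genes with at least a 2-fold change, 601 have a mean under 100, and 90 have one from 1000 to 10000.

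The largest changes were taken where the mean was at least 100 and the landraces did not overlap. Zm00001eb389410 stood at 603 and 354 (the fifth leaf) and 150.3 and 275 (the ninth) in Zapalote and had no read in any Nal-tel library. The other 24 libraries held at most 2.2, so its transcript was seen above the floor in Zapalote alone among the 32 libraries. A library with 3 reads or fewer is called at the floor here. Against that floor, taken per library, the gene was at least 104-fold higher in Zapalote (log2 fold change 8.27, SE 0.53, adjusted p = 9.81e-09 by limma). DESeq2 did not call it (adjusted p = 0.243).

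Zm00001eb375760 stood at 1594 and 1530.1 (the fifth leaf) and 640.3 and 954 (the ninth) in Zapalote. Nal-tel held 0 and 0, then 151 and 4.15 (the ninth leaf). One Nal-tel library thus carried nearly all of that landrace's signal, yet it lay below every Zapalote library. The log2 fold change was 7.71 (SE 1.75, limma adjusted p = 0.00841). Without the ninth leaf replicate 2 of Nal-tel the limma adjusted p was 0.0565. Elsewhere the gene was at the floor in 17 of 24 libraries and reached 597 in Gordo.

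Zm00001eb103500 was lower in Zapalote, at 242 and 267 (the fifth leaf) and 305 and 310.2 (the ninth). Nal-tel held 156313 and 142176 (the fifth) and 85686 and 114804 (the ninth). The means were 281 ± 32.4 (SD, n = 4) and 124745 ± 31224 (SD, n = 4), a 444-fold difference (limma log2 fold change -8.76 ± 0.61, SE, adjusted p = 1.9e-08). In Nal-tel it took 0.177% of all reads of a library on average. Gordo was as low as Zapalote, from 150.4 to 426, and Mushito held 1939.7 and 262 (the fifth leaf) and 6804 and 315 (the ninth). The other 4 landraces held between 72066 and 187449. Zapalote, Gordo and Mushito thus lay below the other 5 landraces, and the replicates of Mushito differed in both leaves.

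Zm00001eb031840 was at 1.75 in replicate 1 of the fifth leaf and at 0 in the other 3 libraries of Zapalote. Nal-tel held 835 and 267 (the fifth leaf) and 461 and 895 (the ninth). It was at least 169-fold lower in Zapalote (log2 fold change -8.74, SE 0.98, adjusted p = 1.5e-05 by limma). In the other 24 libraries the median was 2.03 and the highest value 127, in Tabloncillo. Each Nal-tel library was thus above each library of the other 7 landraces.

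**Figure D2:**
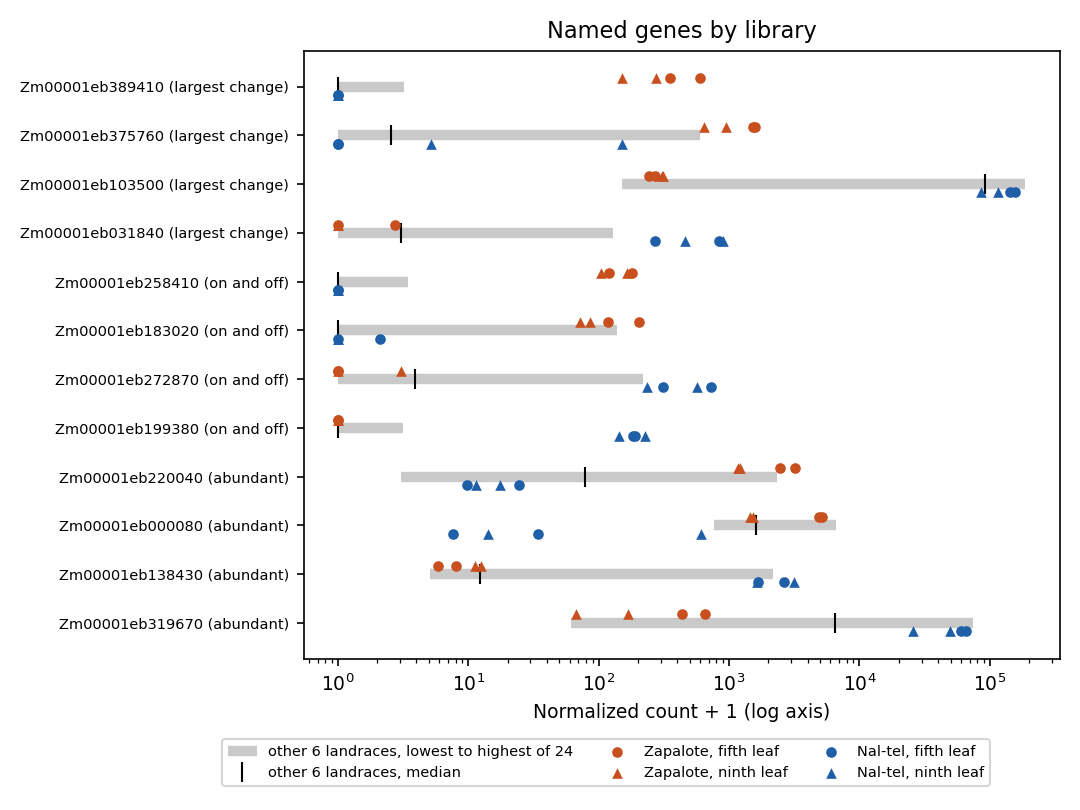
Normalized count + 1 (x axis, log scale) of 12 genes named for the difference over both leaves, with 1 point per library. Orange is Zapalote, blue is Nal-tel, circles are the fifth and triangles the ninth leaf. Grey bars run from the lowest to the highest of the 24 libraries of the other 6 landraces and the tick is their median. All 12 genes were picked by rules that keep the landraces apart, so the orange and blue points do not overlap. The grey bars often span both.

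Where the mean reached 1000 and the landraces did not overlap, 4 more genes were taken by the size of their change. Zm00001eb220040 held 2453 and 3191 (the fifth leaf) and 1208 and 1165 (the ninth) in Zapalote. Nal-tel held 23.3 and 8.76 (the fifth) and 10.4 and 16.6 (the ninth). The log2 fold change was 6.95 (SE 1.40, limma adjusted p = 0.00366). Its level in the other landraces ran from 2.06 to 2326, and both ends were libraries of Mushito. A single landrace thus held a library below all of Nal-tel and another within the range of Zapalote.

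Zm00001eb000080 held 5207 and 4873 (the fifth leaf) and 1437 and 1530.4 (the ninth) in Zapalote. Nal-tel held 33.3 and 6.57 (the fifth) and 611 and 13.3 (the ninth). All 24 libraries of the other landraces lay between 771 and 6597, above each Nal-tel library. It was Nal-tel that stood apart from the 7 remaining landraces in this gene (limma log2 fold change 6.14 ± 0.71, SE, adjusted p = 2.09e-05).

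Zm00001eb138430 was low in Zapalote, at 7.01 and 4.86 (the fifth) and 11.5 and 10.3 (the ninth). Nal-tel held 1670.3 and 2648 (the fifth) and 1649 and 3148 (the ninth). The log2 fold change was -7.92 (SE 0.92, limma adjusted p = 2.28e-05). The gene was also high in Palomero, from 337 to 861, and from 11.3 to 2176 in Mushito. Tabloncillo, Reventador, Gordo and Jala stayed between 4.08 and 84.

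Zm00001eb319670 held 433 and 651 (the fifth leaf) and 168 and 65.7 (the ninth) in Zapalote. Nal-tel held 65150.0 and 59904 (the fifth) and 25965 and 49330.5 (the ninth), or 0.0709% of the reads on average. The log2 fold change was -7.64 (SE 0.99, limma adjusted p = 6.16e-05). Reventador (from 40230.4 to 70698) and Jala (from 40793 to 74588) were at the level of Nal-tel, and Mushito (from 60.3 to 739) at that of Zapalote. Tabloncillo ran from 253 to 20442 between its own libraries.

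Genes with reads in 1 landrace and none above the floor in the other were few. All 4 libraries of Zapalote lay above 3 reads and all 4 of Nal-tel at or under 3 in 41 genes (0.16% of those tested). The reverse held in 44 genes (0.172%). Of these 85 genes (0.332%), 83 were called over both leaves, against 8.42% of all genes tested. The rule that chose them used the same libraries and favours a call. In 18 of the 41 and 18 of the 44 genes the off landrace had no read at all. Where on, the median of the gene means was 46.1 in Zapalote and 45.8 in Nal-tel, so most were low genes. In 7 of the 41 and 10 of the 44 the mean reached 100. With a floor of 10 reads the counts were 73 and 103. Without the ninth leaf replicate 2 of Zapalote they were 54 and 84, and without the ninth leaf replicate 1 of Nal-tel 78 and 48. Leaving out a library cannot lower either count, since the rule then asks less of that landrace. Without any 1 Zapalote library more genes were on in Nal-tel, and without any 1 Nal-tel library more were on in Zapalote. These counts therefore cannot show which landrace had more such genes.

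The 2 genes on in Zapalote with the highest lowest value, besides the one already given, were Zm00001eb258410 and Zm00001eb183020. Zm00001eb258410 stood at 179.7 and 119 (the fifth leaf) and 163 and 104 (the ninth) in Zapalote and had no read in Nal-tel. It was at least 42.5-fold higher (limma adjusted p = 6.38e-08, DESeq2 adjusted p = 0.31). The other 24 libraries held at most 2.45. Zm00001eb183020 stood at 117 and 204 (the fifth leaf) and 84.9 and 70.9 (the ninth) in Zapalote. Nal-tel held 1.11 in the fifth leaf replicate 1 and 0 in the other 3 libraries, at least 35.8-fold less (limma adjusted p = 0.000104). Palomero expressed the gene in all 4 libraries, from 72.4 to 103, a library of Mushito reached 138, and Gordo and Jala had no read of it. The first of these genes was thus on in Zapalote alone, while the second was shared with Palomero.

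In the reverse direction Zm00001eb272870 stood at 312 and 728 (the fifth leaf) and 232 and 567 (the ninth) in Nal-tel. Zapalote held 2.05 in the ninth leaf replicate 2 and 0 in the other 3 libraries, at least 126-fold less (limma adjusted p = 4.24e-05). Gordo had no read of it, and a library of Mushito reached 219. Zm00001eb199380 stood at 181 and 188 (the fifth leaf) and 143 and 224 (the ninth) in Nal-tel, and at 0 in all 4 Zapalote libraries. It was at least 50.5-fold lower in Zapalote (limma adjusted p = 1.9e-08, DESeq2 adjusted p = 0.292). No library of the other 6 landraces held more than 2.18. Within Nal-tel the highest and lowest of its 4 values differed by less than 2-fold.

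Of the 41 genes on in Zapalote, 29 were also on in all 4 libraries of at least 1 other landrace, and 27 were off in all 4 libraries of at least 1 other. Of the 44 genes on in Nal-tel these numbers were 23 and 34. Both states occurred among the other 6 landraces in 15 of the 41 and 13 of the 44 genes. In 3 of the 41 and 3 of the 44 genes all 24 other libraries were at the floor. In 1 of the 41 and 1 of the 44 all 24 were above it. Mushito and Palomero each shared the on state in 18 of the 41 genes, and Tabloncillo in 9. Reventador shared the off state in 20 of the 44 genes and Gordo in 19.

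**Figure D3:**
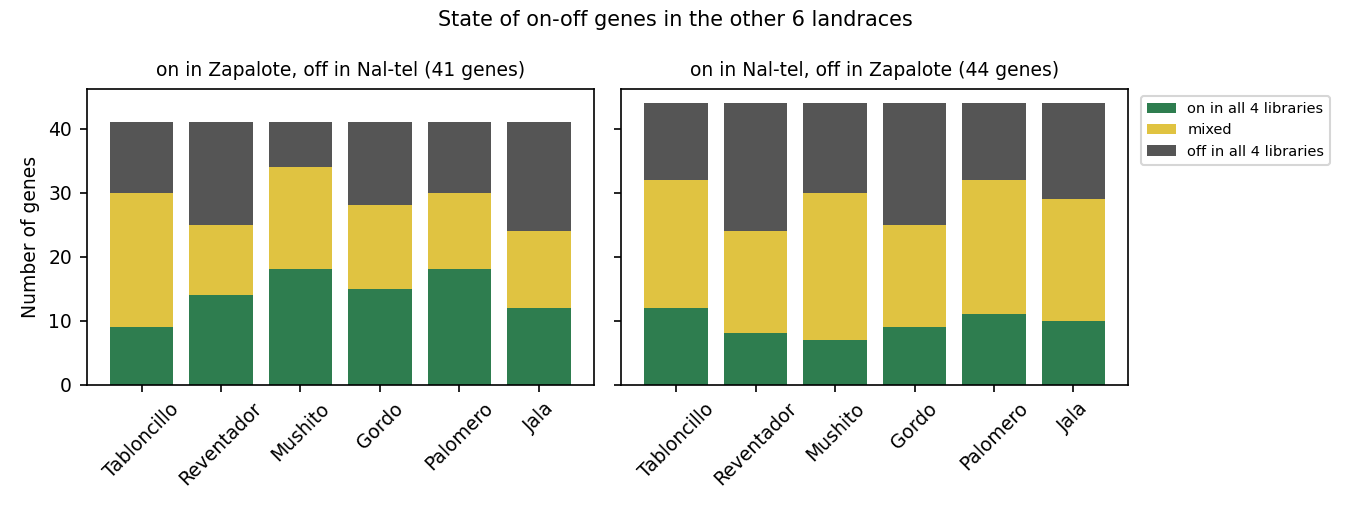
State in each of the other 6 landraces (x axis) of the 41 genes on in Zapalote and off in Nal-tel (left) and the 44 genes of the reverse kind (right), as numbers of genes (y axis). Green is above 3 reads in all 4 libraries, grey is at or under 3 reads in all 4, and yellow is mixed. Mixed states make up 11 to 21 genes per bar on the left and 16 to 23 on the right.

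Leaf by leaf, with 2 libraries against 2 and the spread again taken from all 32 libraries, fewer genes passed. In the fifth leaf 1254 genes (4.9%) were called by limma, 724 higher (2.83%) and 530 lower (2.07%) in Zapalote. In the ninth leaf 302 genes (1.18%) were called, 169 higher (0.661%) and 133 lower (0.52%). Neither balance was stable. For the fifth leaf it turned to 622 higher and 644 lower with each library centred, and to 395 and 493 without replicate 1 of Zapalote. The balance of the ninth leaf turned to 59 and 116 without replicate 2 of Zapalote, and to 10 and 35 in the 8 libraries alone. Over all tested genes the median absolute log2 fold change was 0.31 for the fifth leaf and 0.25 for the ninth. DESeq2 called 2075 (8.12%) and 725 (2.84%) genes, and edgeR 845 (3.31%) and 124 (0.485%). Single libraries moved these limma counts too. The fifth leaf gave 378 genes without replicate 2 of Zapalote, 459 without replicate 1 of Nal-tel and 709 without its replicate 2. The ninth gave 82 without replicate 2 of Nal-tel, 161 without its replicate 1 and 175 without replicate 2 of Zapalote. Library names run in a separate series for each leaf, so each count is also the value within 1 such series.

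For the fifth leaf, genes were taken by the smallest p-value at a mean of at least 100. Zm00001eb184790 held 399 and 484 in the fifth leaf of Zapalote and no read in the fifth leaf of Nal-tel (log2 fold change 8.78, SE 0.56, adjusted p = 1.97e-08 by limma). Ninth leaf libraries held 168 and 172 against 7.29 and 4.98, so the landraces did not overlap there either. Reventador (from 434 to 686) and Jala (from 235 to 329) also expressed it. Zm00001eb342120 held 2759 and 2149.9 in Zapalote against 291 and 286 in Nal-tel (limma log2 fold change 3.07 ± 0.30, SE, adjusted p = 8.25e-06). The difference was smaller in the ninth leaf, with 1076 and 609 against 240.5 and 226 (log2 fold change 1.79). Nal-tel was below each of the 24 other libraries, which began at 406.

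In the fifth leaf Zm00001eb044300 held 45.6 and 85.1 in Zapalote against 1467 and 1998 in Nal-tel (log2 fold change -4.76, SE 0.46, adjusted p = 8.25e-06 by limma). Ninth leaf libraries held 62 and 51.4 against 1545 and 1516, a nearly equal difference of -4.74 on the log2 scale. The other 24 libraries ran from 50.9 to 637, all below the 4 of Nal-tel. Zm00001eb336860 held 377 and 277 against 2598 and 1675 (limma log2 fold change -2.69 ± 0.27, SE, adjusted p = 1.35e-05). For the ninth leaf these were 544 and 589.6 against 1668 and 1883. Again Nal-tel stood above all 24 other libraries, of which the highest was 650.4.

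The same rule for the ninth leaf gave Zm00001eb046710, at 687 and 599.8 in Zapalote against 31.2 and 9.95 in Nal-tel (log2 fold change 5.10, SE 0.58, adjusted p = 9.19e-05 by limma). In the fifth leaf Zapalote held 815 and 845 against 17.8 and 14.2, and the other 24 libraries began at 147, above Nal-tel. Zm00001eb083380 held 37992 and 47819 against 13248 and 16893 (limma log2 fold change 1.51 ± 0.19, SE, adjusted p = 0.000234). In the fifth leaf the values were 50008 and 52284 against 31487 and 30046. The difference was small for a named gene, and the ninth leaf of Nal-tel lay below the lowest of the 24 other libraries, 27662.

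Lower in the ninth leaf of Zapalote was Zm00001eb288530, at 0 and 4.11 against 903 and 1404 (log2 fold change -8.96, SE 0.89, adjusted p = 1.43e-05 by limma). The fifth leaf held 8.77 and 4.86 against 575 and 267. Mushito (from 333 to 808) and Palomero (from 950.5 to 1481) expressed it at the level of Nal-tel, and the remaining 4 landraces held at most 58.4. Zm00001eb391290 held 4.59 and 6.16 against 831 and 113 (limma log2 fold change -5.60 ± 0.70, SE, adjusted p = 0.000234). Fitted to the 8 libraries alone its limma adjusted p was 0.063. The fifth leaf held 43.8 and 70.5 against 1343 and 718. Here all 4 Zapalote libraries lay below the 24 other libraries, which ran from 189.6 to 2218. The ninth leaf replicate 2 of Nal-tel, at 113, lay below that range too.

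The 2 leaves share no library, though for each gene both tests used 1 spread estimated over all 32 libraries. With that limit, each leaf can be read in genes chosen from the other. Of the 1254 genes called in the fifth leaf, 1106 (88.2%) differed in the same direction in the ninth, against 64.2% of all genes tested. Their median log2 difference was 2.05 where they were chosen and 0.66 in the ninth leaf. Of the 302 genes called in the ninth leaf, 284 (94.0%) had the same direction in the fifth, with medians of 3.81 (the ninth) and 2.07 (the fifth). There were 152 genes called in both leaves in the same direction, 12.1% of the fifth leaf list and 50.3% of the ninth leaf list. Of all genes tested, 1.18% were called in the ninth leaf and 4.9% in the fifth. Over all 25567 genes the differences in the 2 leaves correlated with r = 0.567, as a description across genes. The share with the same direction was lowest without the ninth leaf replicate 1 of Zapalote, at 80.3% for genes from the fifth leaf and 86.7% for those from the ninth.

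**Figure D4:**
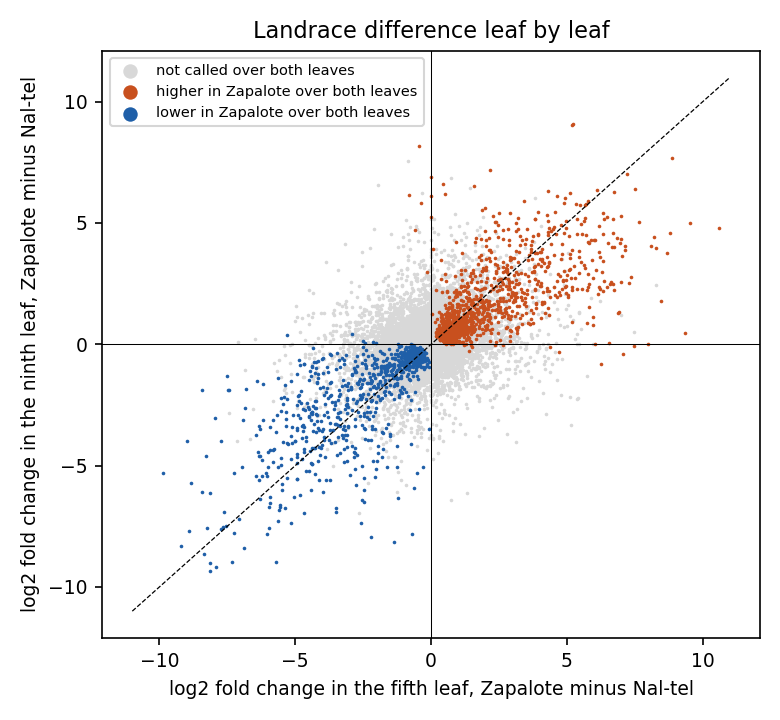
Log2 fold change of Zapalote minus Nal-tel in the fifth leaf (x axis) against that in the ninth leaf (y axis) for 25567 genes. Orange and blue mark the 1230 and 922 genes called higher and lower over both leaves, and the dashed line marks equal differences. Most coloured points lie in the quadrants where both leaves have the same sign. They were called on the mean of the plotted differences, and that choice favours these quadrants.

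Whether the landrace difference depends on the leaf was tested as the difference between the leaves. No gene passed in limma (0 of 25567, 0%), with 1598 genes at an unadjusted p under 0.05. In edgeR 0 passed, with 1624 at an unadjusted p under 0.05, and DESeq2 called 68 (0.266%). Leaving out the fifth leaf replicate 1 of Zapalote gave 39 genes, and leaving out another library between 0 and 16. With 2 libraries per group the data allow no statement that the landraces differ alike in both leaves.

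The 4 genes named for that test did not pass in limma, and their values are given as a description. In DESeq2 all 4 passed. Zm00001eb415760 held 5173 and 5589 in the fifth leaf of Zapalote against 1927 and 2192 in Nal-tel. In the ninth leaf these were 2379.8 and 1849 against 2594 and 2501 (log2 fold change of the ninth minus the fifth leaf -1.67, limma adjusted p = 0.126, DESeq2 adjusted p = 0.000111). This gene also passed in limma with a pseudocount of 10 (adjusted p = 0.045), without a filter (0.0256), and without replicate 1 of Zapalote in the fifth (0.0364) or the ninth leaf (0.0273). Zm00001eb303780 held 508 and 343 against 67.7 and 63.5 in the fifth leaf. The ninth leaf held 379 and 374 against 304 and 479 (-2.67 on the same scale, limma adjusted p = 0.189, DESeq2 adjusted p = 0.00208). The landraces lay apart in the fifth leaf in both genes. The ninth leaf had the landraces overlapping in Zm00001eb303780, and Zapalote just below Nal-tel in Zm00001eb415760.

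Zm00001eb293910 held 8.77 and 26.7 in the fifth leaf of Zapalote against 212 and 210.2 in Nal-tel. The ninth leaf held 96.4 and 103 against 144 and 125 (log2 fold change of the ninth minus the fifth leaf 3.26, limma adjusted p = 0.189, DESeq2 adjusted p = 0.000966). Without the fifth leaf replicate 2 of Zapalote its limma adjusted p was 0.0478. Zm00001eb150090 held 6.14 and 3.65 against 415 and 420.4 in the fifth leaf. Ninth leaf libraries of Zapalote held 40.2 in replicate 1 and 345 in replicate 2, against 399.8 and 343 in Nal-tel (4.55 on the same scale, limma adjusted p = 0.189, DESeq2 adjusted p = 3.29e-05). Without the ninth leaf replicate 1 of Zapalote its limma adjusted p was 0.000891. The ninth leaf of Zapalote was thus split between its replicates in this gene. Tabloncillo ran from 1.97 to 83.6 and Reventador from 41.5 to 137, while Mushito, Gordo, Palomero and Jala held from 264 to 990.2.

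Set among the other 6 landraces, Nal-tel lay further out than Zapalote in more of the genes called. In 1008 (46.8%) of the 2152 genes the Nal-tel mean lay outside the range of the 6 other landrace means while Zapalote lay inside. The reverse held in 370 (17.2%), both lay outside in 462 (21.5%) and both inside in 312 (14.5%). Over all tested genes these shares were 22.7%, 13.3%, 10.9% and 53.0%. Choosing genes by their difference raises the share outside, so the shares are a description. Nal-tel was further than Zapalote from the median of the 6 in 68.4% of the called and 57.9% of all tested genes. Of the genes higher in Zapalote, Nal-tel was below all 6 other means in 824 and Zapalote above all 6 in 428. Of the genes lower in Zapalote, Nal-tel was above all 6 in 637 and Zapalote below all 6 in 368.

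Each of the 6 other landraces was nearer to Zapalote in most of the called genes. The share ran from 60.1% in Reventador to 71.2% in Mushito, against 53.4% (Gordo) to 60.0% (Mushito) over all tested genes. All 6 were nearer to Zapalote in 490 genes (22.8%, against 12.3% of all tested), and all 6 nearer to Nal-tel in 117 (5.44%, against 6.51%). In the 270 genes called with at least a 16-fold change the shares nearer to Zapalote, from 53.3% (Gordo and Palomero) to 58.1% (Tabloncillo and Mushito), were close to those over all tested genes. In those genes all 6 were nearer to Zapalote in 43 and to Nal-tel in 28.

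Variation of the same genes was also read in the other landraces, whose libraries gave the main fit part of its spread. By a limma F-test on the 24 libraries of the other 6 landraces alone, 7216 of the 25567 genes (28.2%) differed among those 6. Of the 1104 genes called from the 8 Zapalote and Nal-tel libraries alone, which share no library with that test, 537 (48.6%) were among them. Of the 24463 genes not called there it was 27.3%. The genes called in the 32-library fit gave 48.8%. That share is not independent of the F-test, since the fit drew its spread from these 24 libraries too.

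With the same limma model on the 26156 genes that averaged at least 10 over all 32 libraries, the number of genes called was set beside that of the other landrace pairs. Zapalote and Nal-tel had 2077 (7.94%), which is number 17 of 28 pairs in falling order. The 28 counts ran from 458 in Mushito and Palomero (1.75%) to 5384 in Palomero and Reventador (20.6%). Among the 7 pairs with Nal-tel it was the smallest count, followed by Gordo with 2915 (11.1%), and the largest was Palomero with 4099 (15.7%). Among the 7 pairs with Zapalote it was the third largest, after Reventador with 2725 (10.4%) and Palomero with 2587 (9.89%), and Tabloncillo had the smallest with 1406 (5.38%). Pairs share libraries, and differences between these counts were not tested. With any 1 of the 8 Zapalote and Nal-tel libraries left out, the pair fell further down this order. Such a fit holds fewer libraries only for the 7 pairs with the landrace concerned.

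**Figure D5:**
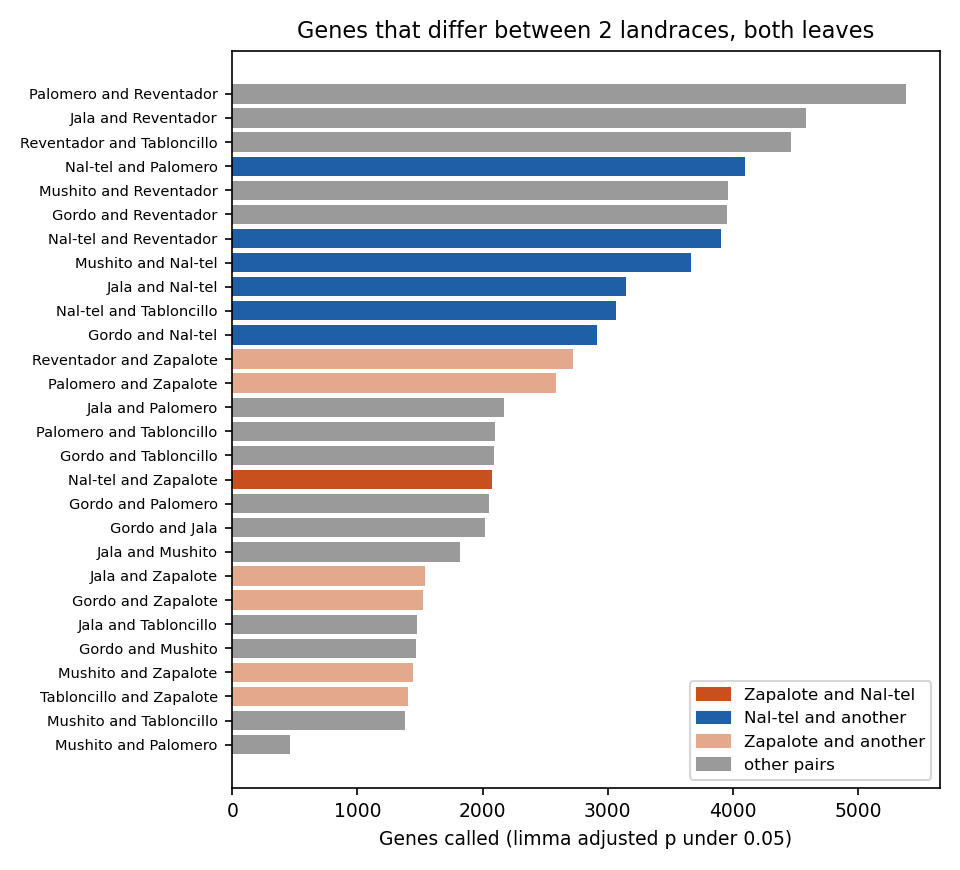
Number of genes called by limma over both leaves (x axis) for each of the 28 landrace pairs (y axis). Zapalote and Nal-tel (dark orange) had 2077, below the 6 other pairs with Nal-tel (blue) and among the 7 pairs with Zapalote behind those with Reventador and Palomero.

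Called genes were spread over the whole table when it was ordered by the number in the gene ID. In 127 windows of 200 tested genes the share called ran from 4% to 15.5%, with a median of 8.5%. Of the 2152 genes, 252 (11.7%) were followed by another called gene, against the 8.42% of all genes. Of these 252 pairs, 172 (68.3%) had the same direction. At 2 places apart the shares were 9.85% and 51.9%, and at 100 places 8.44% and 56.9%. The longest series in 1 direction held 5 genes, from Zm00001eb429480 to Zm00001eb429590, all lower in Zapalote, a pair of IDs named after their values were seen. Zm00001eb429480 ran from 168 to 1183 in Zapalote and from 1179 to 4779 in Nal-tel, so the landraces overlapped there (limma adjusted p = 0.0214). Zm00001eb429590 ran from 0 to 51.4 and from 31.2 to 74.5 (limma adjusted p = 0.00809), and overlapped too. The 3 genes between them did not overlap, with highest Zapalote values of 0, 6.16 and 54.4 and lowest Nal-tel values of 4.16, 7.66 and 66.6. Whether genes next to each other in the list share reads was not tested.

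Replicates of the same landrace and leaf also differed in whether a gene had reads. One replicate was at or under 3 reads and the other at 30 or more in 294 genes of the fifth and 252 of the ninth leaf of Zapalote. In Nal-tel there were 111 and 126 such genes. In the same order 9.52%, 13.5%, 9.01% and 18.3% of these genes were among the 2152 called, against 8.42% of all genes tested. The replicates of Zapalote thus differed in this way in more genes than those of Nal-tel in both leaves, with 1 pair of libraries each and no test of the difference.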

How the data were processed

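The authors deposited a signal of normalized counts per gene and library. STAR, featureCounts and DESeq2 are named in the submitters' processing notes, and the genome build is not given in the sources used here. Every value of a library (100%) lay within 0.01 of a whole multiple of that library's smallest step, and division by the step gave whole reads. Among recovered values from 1 to 20, 78.1% to 86.7% were even in the 8 libraries. The lowest share was that of the fifth leaf replicate 1 of Nal-tel, and the next lowest was 84.5%. That library also had the most genes above 0 (29945). Reads thus came largely in pairs, a floor of 3 reads stands for fewer fragments, and counting error is larger than the reads alone give. No column was left out.

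limma 3.58.1 in R 4.3.3 was fitted to log2(normalized count + 1) of all 32 libraries, with 16 group means, eBayes and an intensity trend. Contrasts were Zapalote minus Nal-tel, and p-values were adjusted by Benjamini-Hochberg over 25567 genes. edgeR 4.0.16 and DESeq2 1.42.0 on the recovered reads were alternatives. Tests were tried on simulated data. Summaries and plots came from Python 3.11.15 with matplotlib 3.10.9, pandas 2.3.3 and numpy 2.4.6.

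The genes named are, per comparison, 2 higher and 2 lower in Zapalote, taken by change or p-value. Their mean was at least 100 (1000 for abundant genes), and those taken by change had landraces that did not overlap. On and off genes were instead taken by the highest lowest value, without that minimum. Members and rules were chosen with earlier results of these data known. Lists by gene name (C4 cycle, veins, heat shock, cell types) were left out for want of names.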

Additional observations from a re-analysis of the deposited data

Results flagged for a closer look

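In 44 sets of 4 libraries, taken over the named genes and the read totals of each landrace, 5 had a library far from the other 3. For 4 draws from a normal distribution chance gives about 1 in 20. These sets mix both leaves and the genes were picked for their differences, so that rate does not apply to them. In Nal-tel, Zm00001eb375760 stood at 151 and Zm00001eb000080 at 611 in the ninth leaf replicate 1, far above the other 3 libraries in both genes. Zm00001eb044300 stood at 1998 in the fifth leaf replicate 2 of Nal-tel. Zm00001eb150090 stood at 345 in the ninth leaf replicate 2 of Zapalote, against 40.2 in replicate 1. The ninth leaf replicate 2 of Nal-tel was the deepest of its landrace, with 83.3 M reads. The part of depth in these results was not tested.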

How the results depend on the processing

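Where a count moved, the cause was not tested, also where the fit held fewer libraries. Fitted to the 8 libraries alone, 1104 genes differed over both leaves, 340 for the fifth leaf and 45 for the ninth (10 higher in Zapalote), and an additive model gave 1030. DESeq2 gave 3091 over both leaves, 2075 for the fifth leaf, 725 for the ninth and 68 between the leaves. In the ninth leaf edgeR gave 124 with TMM and 128 with the authors' scaling, and a mean of at least 50 gave 188. Between the leaves a pseudocount of 0.1 gave 2 genes, one of 10 gave 7, no filter gave 16, and a spread estimated without Palomero, added after seeing the data, gave 1. On and off genes numbered 176 at a floor of 10 reads. Without single libraries, where a lone library is assumed to vary like the other groups, the counts ran from 1197 to 1803 over both leaves, from 378 to 1307 in the fifth, from 82 to 338 in the ninth leaf and from 0 to 39 between the leaves. The rank among pairs then ran from 20 to 27 and the on and off genes from 97 to 138. Samples that share a replicate number were not treated as paired. The r of replicate deviations between the landraces was 0.0518 for the fifth leaf and 0.0656 for the ninth. Across the leaves it was 0.0966 in Zapalote and 0.0765 in Nal-tel. A replicate block gave 2220, 1266, 322 and 0 genes. Of 636 values of named genes, 0 reversed, 5 lost the call and 10 gained it, all 10 between the leaves. Several settings changed only the spread and could not move a fold change. Most of these genes were also picked for a large change or a small p-value, so a reversal was unlikely from the start.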
